A study of Mus musculus with 30 samples.

Results

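The nuclear genes for subunits of the oxidative phosphorylation complexes were followed through kidney and pancreas of doxycycline-treated mice, in 6 groups of 5 libraries. Members were taken by name: every listed gene whose symbol began with Nduf followed by a, b, c, s or v and a digit, with Uqcr, with Cox4 to Cox8, or with Atp5, or that was Sdha, Sdhb, Sdhc or Sdhd, leaving out the Ndufaf assembly factors. The rule found 85 genes among the 20240 names of the 2 tables, of which 84 were in the kidney table (19468 names) and 85 in the pancreas table (19685 names). Cox8c was in the pancreas table only. By complex, 35 belonged to complex I, 4 to complex II, 8 to complex III, 17 to complex IV and 15 to complex V. The other 6, kept apart in every count by complex, were Cox4nb, which despite its name encodes a protein of the endoplasmic reticulum membrane complex, Atp5s, Atp5sl, Cox7a2l, Ndufa4 and Ndufa4l2. The name rule leaves out the subunit genes Ndufab1, Cyc1 and Usmg5, and the subunits encoded in mitochondrial DNA were not analysed here.

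All mice were of the C57BL/6 strain and drank 0.2 mg/ml doxycycline for 7 days. The label i4F names mice in which the drug switches on the 4 reprogramming factors Oct4, Sox2, Klf4 and c-Myc. In kidney the groups were i4F, i4F with Ink4a/Arf knocked out and i4F with p53 knocked out. In pancreas they were i4F, i4F with Ink4a/Arf knocked out and a group labelled p53_KO, whose labels do not carry the i4F prefix, although the series' design text says that the factors were induced in every genotype. Ink4a/Arf encodes the cell cycle inhibitors p16Ink4a and p19Arf, and p53 is the tumour suppressor that p19Arf stabilises. No group without doxycycline and no group with intact genes but no reprogramming factors was analysed here, and age was not given in the sources used here. Values were FPKM, sequenced fragments per length of transcript and per total of mapped fragments, so levels of different genes can be set side by side within a library. Read counts and depth per library were not given beyond the statement of over 24 M mapped reads per sample.

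Trp53 mRNA, the targeted gene, averaged 7.04 FPKM ± 2.12 (SD, n = 5) in p53 KO kidneys against 16.4 ± 2.2 in i4F kidneys. In pancreas it went the other way, with 15.6 ± 7.12 FPKM in the libraries labelled p53 KO against 3.40 ± 2.14 in i4F libraries, so pancreas directions below are stated for the libraries labelled p53 KO. After the scaling described below, Trp53 was 5.18 to 7.97 in those 5 libraries against 3.30 to 7.38 in i4F pancreas, which overlap, and 5.18 to 8.93 in p53 KO kidneys against 14.8 to 19.1 in i4F kidneys. Those 5 libraries also stood apart in makeup. Acinar enzyme genes took 7.82%, 16.9%, 30.5%, 45.4% and 1.02% of their listed FPKM (replicates 1 to 5), against 54.0 to 67.6% in i4F and 57.1 to 67.4% in Ink4a/Arf KO pancreas. These shares count listed values only, and Cela2a, Ctrb1, Pnlip and Amy2b, enzyme genes of every acinar cell, were listed at 0 in all 5 i4F libraries, so a listed 0 can be a failed estimate. Of the 18 acinar genes, 9 lay below every i4F library in all libraries labelled p53 KO, against 1.27% of all genes tested. The other way, 2 lay above every i4F library, and 4 were higher on average. Cela2a, Ctrb1, Pnlip and Amy2b, at 0 throughout i4F, could not lie below it. Any listed value above 0 counts as higher for them, so their part in these counts was fixed by the listing. All 4 duct markers, 4 of 5 fibroblast markers and 4 of 9 leukocyte markers lay above every i4F library in all libraries labelled p53 KO, as did 73.0% of all genes tested. Summed duct markers were 268 to 1296 FPKM there against 11 to 45.1 in i4F, fibroblast markers 490.5 to 7119 against 49.7 to 227.8, and leukocyte markers 392 to 6309 against 26.6 to 547.6. Kidney libraries carried the proximal tubule markers at 2871 to 4282 FPKM without Kap in i4F, and pancreas i4F and Ink4a/Arf KO libraries carried acinar and islet markers, as their labels say.

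Oxidative phosphorylation makes ATP in the inner mitochondrial membrane. Complex I takes electrons from NADH and complex II from succinate, ubiquinone carries them to complex III, cytochrome c carries them on to complex IV, which reduces oxygen, and complex V, the ATP synthase, uses the proton gradient that complexes I, III and IV build. Kidney tubules reabsorb solutes at a high energy cost and are dense in mitochondria, whereas acinar cells of the pancreas devote most of their mRNA to digestive enzymes. Complexes I, III, IV and V are built from subunits of both genomes. Complex II is encoded in the nucleus alone. Several complex IV subunits exist as isoform pairs, 1 of broad expression and 1 restricted to tissues such as heart and skeletal muscle (Cox6a2, Cox7a1, Cox8b), lung (Cox4i2) or testis (Cox6b2, Cox7b2, Cox8c).

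As examples that do not stand for their classes, 4 promoters are shown, 2 of broad and 2 of restricted genes. Each is the 250 bases before the RefSeq transcription start (GRCm38.p6), read 5′ to 3′ on the gene's strand, with matches to the motifs searched in capitals. Cox6a1, the broad isoform of the complex IV subunit 6A, at chr5:115348959-115349208 on the minus strand, held the letters of the NRF1 motif with starts 162 and 117 bases upstream, of Sp1 at 139 and 44 and of ETS at 16. Sdhd, a membrane anchor of complex II, at chr9:50603850-50604099 on the minus strand, held NRF1 letters at 79 and ETS letters at 46. Cox7a1, at chr7:30183921-30184170 on the plus strand, and Cox8b, at chr7:140900447-140900696 on the minus strand, held none of the 5 motifs in this window.
Cox6a1: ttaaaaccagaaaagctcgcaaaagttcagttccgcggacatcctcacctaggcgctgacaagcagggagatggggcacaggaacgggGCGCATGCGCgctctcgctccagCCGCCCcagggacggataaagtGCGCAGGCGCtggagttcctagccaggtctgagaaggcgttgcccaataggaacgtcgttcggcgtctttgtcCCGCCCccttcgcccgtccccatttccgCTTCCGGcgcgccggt
Sdhd: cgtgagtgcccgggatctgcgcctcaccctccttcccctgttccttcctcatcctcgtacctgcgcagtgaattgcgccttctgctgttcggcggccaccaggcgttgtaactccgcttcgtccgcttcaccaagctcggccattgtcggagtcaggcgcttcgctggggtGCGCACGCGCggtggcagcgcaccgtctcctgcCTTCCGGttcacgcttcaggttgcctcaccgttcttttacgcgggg
Cox7a1: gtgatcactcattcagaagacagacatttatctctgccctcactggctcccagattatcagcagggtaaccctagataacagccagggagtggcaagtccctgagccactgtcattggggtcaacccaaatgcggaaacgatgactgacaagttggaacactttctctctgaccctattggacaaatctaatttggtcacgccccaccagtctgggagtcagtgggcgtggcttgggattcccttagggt
Cox8b: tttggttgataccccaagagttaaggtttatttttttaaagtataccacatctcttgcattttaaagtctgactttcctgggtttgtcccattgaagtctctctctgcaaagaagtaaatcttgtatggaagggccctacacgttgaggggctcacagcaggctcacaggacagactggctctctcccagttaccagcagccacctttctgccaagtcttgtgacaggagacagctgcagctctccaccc

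RefSeq promoters matched 69 of the 85 members, with 75 promoters in all. In windows of 300 bases around the start, on both strands, the NRF1 letters (GCGCA, any base, then GCGC) stood in 24% of the members' promoters and in 4.6% of all 32851 promoters. The ETS letters CCGGAAG stood in 21.3% and 8.86%, the YY1 letters AAGATGGC in 16% and 2.75%, and the ERR letters AAGGTCA in 10.7% and 4.72%. The Sp1 letters GGGCGG were about as frequent in both, at 38.7% and 35.7%. Among broad genes, Cox5b, Cox7c and Uqcr10 held none of the 5 motifs in these windows, and the restricted Cox6b2 and Cox7b2 held Sp1 letters. None of the 5 letter strings contains another, though neighbouring matches can share bases. A match is a description of the sequence and not evidence of a bound factor. Members with and without NRF1 letters had like medians in the comparisons that follow: in p53 KO kidney against i4F the median log2 change was -0.25 for 17 members with them and -0.29 for 51 without, and in the pancreas libraries labelled p53 KO against i4F, scaled as below, -0.69 for 17 with and -0.65 for 48 without.

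In kidney, summed FPKM of the subunits of complexes I to V was 31369 to 39514 in i4F (mean 34614 ± 3079, SD, n = 5), 28923 to 32176 in Ink4a/Arf KO (30649 ± 1332) and 22384, 27598, 28514, 27932 and 36831 in p53 KO replicates 1 to 5 (28652 ± 5192). The p53 KO kidneys spread widest: replicate 1 was the lowest of all 15 and replicate 5 lay within the i4F range. In pancreas the sums were 4579, 3818, 4518, 5202 and 4870 in i4F replicates 1 to 5, 4310 to 5151 in Ink4a/Arf KO, and 11096, 10203, 9577, 6245 and 11478 in the libraries labelled p53 KO. All 5 of the latter lay above all 10 others. The subunits took 4.80 to 7.53% of the listed FPKM in kidney libraries, 0.519 to 0.793% in i4F pancreas and 0.733 to 2.19% in pancreas labelled p53 KO. Because acinar enzymes dominate 10 of the 15 pancreas libraries, each comparison was also run after median-of-ratios scaling within the tissue, which sets the typical gene level between libraries. Size factors were 0.92 to 1.14 in kidney, 0.498 to 0.947 in i4F and Ink4a/Arf KO pancreas and 3.17, 2.73, 1.97, 1.25 and 3.11 in the libraries labelled p53 KO. After scaling, the sum in pancreas was 3502 to 4993 in the libraries labelled p53 KO, 5494 to 8604 in i4F and 6533 to 8443 in Ink4a/Arf KO, so the same libraries went from the highest to the lowest. In these whole-tissue samples, fewer cells of a type and less RNA per cell cannot be told apart.

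**Figure D1:**
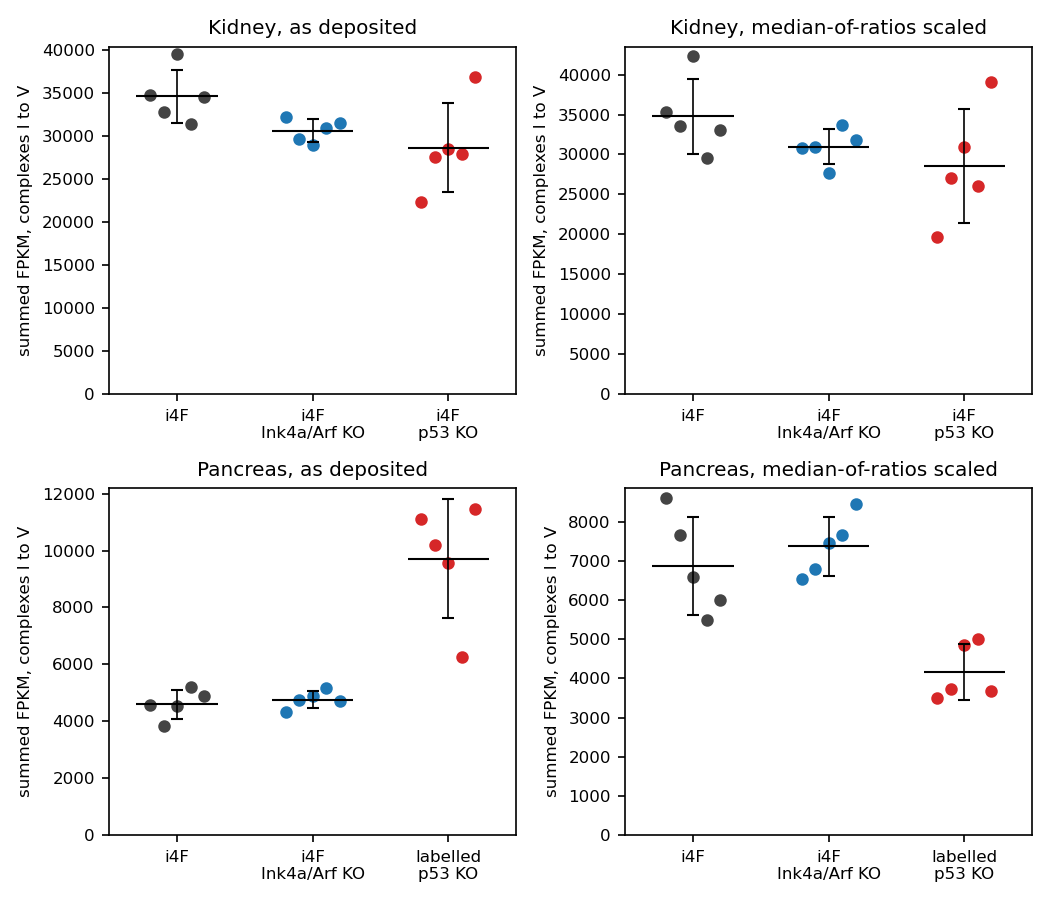
Summed FPKM of the subunits of complexes I to V (vertical axes, from 0) in each library (points, in replicate order within a group), with the group mean (line) and SD (bar), for kidney (top) and pancreas (bottom), as deposited (left) and after median-of-ratios scaling (right). In pancreas the 5 libraries labelled p53 KO are the highest as deposited, at 6245 to 11478, and the lowest after scaling, at 3502 to 4993.

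Subunits of a single complex differed widely in level. In i4F kidney the ATP synthase catalytic subunit Atp5b was the highest member of complex V, at 1459 to 1737 FPKM, against 301 to 381 for the peripheral stalk subunit Atp5f1, the lowest. Cox8a was the highest of complex IV, at 1135 to 1608 FPKM, and in complex I the accessory subunit Ndufa3 reached 668 to 832 while the accessory subunit Ndufa11 stood at 25.9 to 32.4. In complex II the anchor Sdhc was highest, at 300.2 to 369 FPKM, and the flavoprotein Sdha, which oxidises succinate, was lowest, at 268 to 270. In complex III, Uqcr10 was highest (656 to 958 FPKM) and the core protein Uqcrc2 lowest (241 to 254). The order was partly different in i4F pancreas, where Cox4i1 led complex IV (133 to 187 FPKM), Atp5e led complex V (176 to 233), Uqcrq led complex III (176 to 209) and the iron-sulfur subunit Sdhb led complex II (32.9 to 44.7). Kidney means exceeded pancreas means for all 72 members of complexes I to V with a mean of at least 1 FPKM in both i4F groups, by 3.25 to 18.1 times with a median of 8.22. The median ratio was 7.26 for complex I, 11.6 for complex II, 8.78 for complex III, 8.91 for complex IV and 7.99 for complex V. The 2 tables were normalized separately, so these ratios are set across tables and carry no test.

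The comparison of the pancreas libraries labelled p53 KO with i4F sets the group labelled p53 KO beside i4F, both given doxycycline. As deposited, 72 of 78 members tested were higher at an adjusted p under 0.05 (limma on log2(FPKM + 1), Benjamini-Hochberg over all 10781 genes tested), and none was lower. Of all genes tested, 93.4% were called, 91.2% higher and 2.25% lower, so the members' count was near that of all genes, and their median log2 change, 1.11, was below the 1.58 of all genes. Cox7a1 and Cox4nb are among the 72 and passed the filter on low values only with the libraries labelled p53 KO, where they were high. Without them 70 of 76 members were higher, with a median of 1.09. The 7 members not tested for low values were Atp5s, Cox4i2, Cox6a2, Cox6b2, Cox7b2, Cox8b and Cox8c. After scaling, 60 of 78 members were lower and 1, Cox4nb, was higher, against 25.0% lower and 44.0% higher among 10418 genes (69.0% called), with a median of -0.65 for the members and 0.20 for all genes. The direction of the pancreas result therefore depends on the scale, and 54 members were called higher as deposited and lower after scaling. On a further scale, FPKM outside the acinar list, which was added after the data were seen, 25 members were higher and 10 lower, against 69.4% and 6.84% of all genes, with a median of 0.18. The values of all 5 libraries labelled p53 KO lay above all i4F values for 65 of 78 members as deposited (73.0% of all genes), and below them for 43 after scaling (17.3%). Because 1 was added to each FPKM before the logarithm, changes of low genes come out too small, and p-values measure only the spread between these mice. The acinar share and the duct and fibroblast marker sums given above also separate these libraries from i4F, whereas the leukocyte sums overlap, and the part of tissue makeup in these changes was not tested. Xist, which marks female tissue in mice, was 5.44, 7.16 and 9.15 FPKM in i4F replicates 3 to 5. It was at most 0.856 in the libraries labelled p53 KO. A fit with Xist as a covariate was among the alternatives, but its pancreas values are not given here. Sex was not tested as a cause of these changes.

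**Figure D2:**
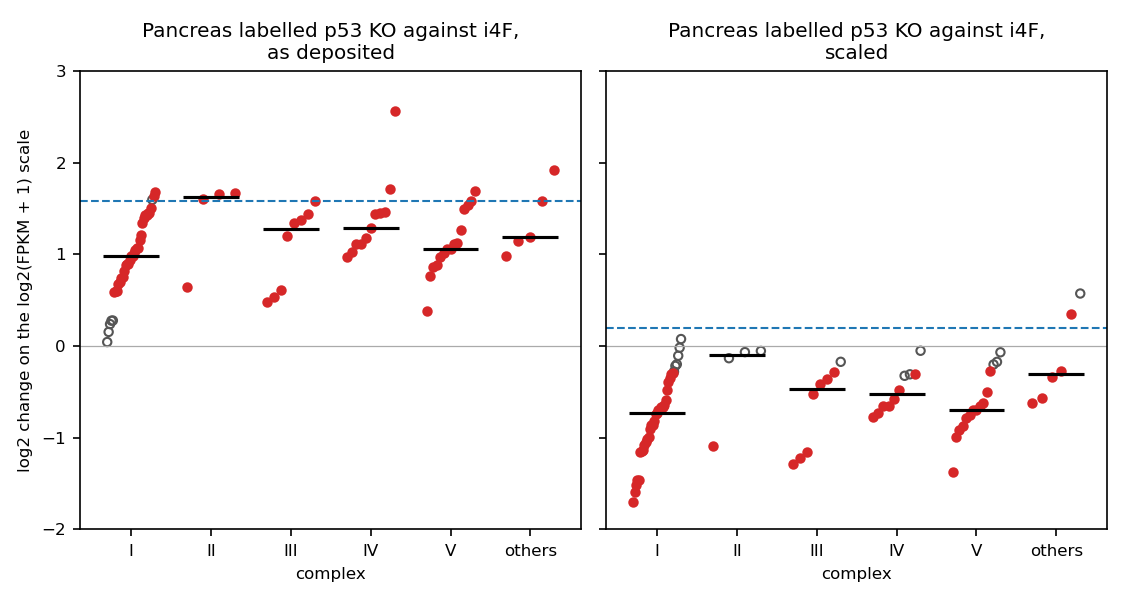
Log2 change of each member in the pancreas libraries labelled p53 KO against i4F (vertical axis) by complex (horizontal axis, others being the 6 members kept apart), as deposited (left) and scaled (right). Filled red points passed the test and open points did not, and black lines are medians by complex. The left panel and its medians include Cox7a1 and Cox4nb. As deposited both passed the filter on low values only with the libraries labelled p53 KO, so their points are not read as tests. The dashed blue line is the median of all genes tested, 1.58 on the left and 0.20 on the right. In both panels Ndufa1 is the lowest point of complex I.

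All 6 members not called as deposited were subunits of complex I. As deposited 29 of its 35 subunits rose, with a median of 0.99, and after scaling 29 fell, with a median of -0.73. Ndufa1, a small accessory subunit of the membrane arm (X-linked, chrX:37187588-37191163 on GRCm38), was 87.0, 79.6, 80.0, 76.1 and 76.7 FPKM in i4F replicates 1 to 5, 75.5, 84.3, 75.5, 77.6 and 87.8 in Ink4a/Arf KO, and 92.1, 82.4, 75.4, 64.2 and 102 in the libraries labelled p53 KO. The 3 groups overlapped, and the log2 change was 0.04 (SE 0.16, adjusted p = 0.801, limma) as deposited and -1.71 (SE 0.21, adjusted p = 5.89e-06) after scaling, the largest fall of any member. Ndufv3, Ndufb9, Ndufa13 and Ndufb11, all accessory subunits, were likewise not called as deposited (0.15, 0.24, 0.28 and 0.28) and fell after scaling by 1.59, 1.52, 1.46 and 1.47. The exons of Ndufa13 and Ndufb11 overlap those of Tssk6 and Rbm10 on the opposite strand, and the exons of Ndufb9 overlap those of Gm49356 on the same strand. Ndufs1, described next, shares exon bases with Eef1b2 on the opposite strand. Whether reads were counted by strand was not given in the sources used here. Ndufs1, a core subunit with several iron-sulfur clusters, was 3.56, 4.06, 5.02, 7.14 and 7.40 FPKM in i4F. It was 26.3, 23.9, 14.6, 9.46 and 28.2 in the libraries labelled p53 KO, all 5 above all i4F values. Its log2 change was 1.68 (SE 0.27, adjusted p = 1.74e-05) as deposited and 0.08 (SE 0.10, adjusted p = 0.495) after scaling, so its level followed the typical gene. Of the 28 accessory subunits 22 rose as deposited, with a median of 0.89, and 24 fell after scaling, with a median of -0.84.

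Ndufs5, an accessory subunit, did not pass the test as deposited (1.60, SE 0.77, adjusted p = 0.0561) and varied most between replicates. It was 5.90, 1.54, 11, 16.3 and 13.3 FPKM in i4F, 0.0118, 10.3, 16.8, 0.0225 and 17.1 in Ink4a/Arf KO and 34.3, 29.2, 28.6, 13.0 and 28.8 in the libraries labelled p53 KO. A pair of Ink4a/Arf KO libraries was thus near 0 for a subunit that the other libraries carried at 1.54 FPKM or more, and values so near 0 in a table without counts can be failed estimates.

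Complex II was split between its subunits. Sdha (chr13:74322254-74350280) was 11.7, 10.3, 13.8, 20.9 and 17.9 FPKM in i4F replicates 1 to 5, 13.2, 15.3, 12.8, 14.5 and 12.5 in Ink4a/Arf KO, and 63.4, 60.4, 39.7, 25.2 and 63.6 in the libraries labelled p53 KO, with no overlap. Its log2 change was 1.65 (SE 0.25, adjusted p = 1.08e-05, limma) as deposited. After scaling Sdha lay between 19.6 and 22.3 in all 15 libraries, and its change of -0.05 (SE 0.07, adjusted p = 0.504) did not pass the test. Sdhb (chr4:140961203-140979193), the iron-sulfur subunit that Sdha passes its electrons to, was 41.3, 32.9, 39.6, 44.7 and 44.1 FPKM in i4F and 75.7, 65.0, 68.2, 44.0 and 69.8 in the libraries labelled p53 KO, where replicate 4 fell within the i4F range. It rose by less than Sdha as deposited, 0.64 (SE 0.17, adjusted p = 0.00208), and fell by 1.10 after scaling (SE 0.16, adjusted p = 2.46e-05). The anchors had values near those of Sdha: Sdhc rose by 1.60 and Sdhd by 1.67 as deposited, and both missed the threshold after scaling (-0.13 and -0.07).

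All 8 complex III subunits rose as deposited and 7 fell after scaling, with medians of 1.27 and -0.47. Uqcrq, a small membrane subunit, was 209, 177, 176, 181 and 202 FPKM in i4F and 274, 250.3, 312, 236 and 254 in the libraries labelled p53 KO, all 5 above all i4F values. Its log2 change was 0.48 (SE 0.17, adjusted p = 0.0136) as deposited and -1.28 (SE 0.25, adjusted p = 0.000421) after scaling. The hinge protein Uqcrh (0.61 and -1.16) and Uqcr11 (0.54 and -1.23) moved like Uqcrq, whereas the 2 core proteins Uqcrc1 (1.37 and -0.36) and Uqcrc2 (1.44 and -0.28) and the Rieske iron-sulfur protein Uqcrfs1 (1.21 and -0.53) moved more nearly with the typical gene.

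In complex IV all 10 subunits tested other than Cox7a1 rose as deposited, with a median of 1.24, and 7 of 10 fell after scaling, with a median of -0.53. Cox5a, which binds the matrix side of the complex, was 56.3, 49.8, 65.8, 82.3 and 71.8 FPKM in i4F and 268, 257, 203, 120 and 256 in the libraries labelled p53 KO, with no overlap. Its log2 change was 1.71 (SE 0.22, adjusted p = 2.40e-06) as deposited and -0.05 (SE 0.10, adjusted p = 0.664) after scaling. The values were 1.12 and -0.65 for Cox4i1, which joins the complex early in its assembly, 1.12 and -0.65 for Cox6a1, 1.02 and -0.73 for Cox7a2 and 1.44 and -0.33 for Cox8a, of which the scaled value for Cox8a missed the threshold (adjusted p = 0.0532). The exons of Cox4i1 overlap those of Cox4nb on the opposite strand. Cox4nb rose by 0.35 after scaling. No change as deposited is given for it, since there it passed the filter only with the libraries labelled p53 KO.

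All 15 complex V subunits rose as deposited and 12 fell after scaling, with medians of 1.06 and -0.69. Atp5a1 and Atp5b, the 2 subunits of the catalytic head, had log2 changes of 1.59 and 1.5 as deposited and of -0.17 and -0.27 after scaling, the first of which missed the threshold (adjusted p = 0.092). Atp5d of the central stalk had 1.69 and -0.07 (adjusted p = 0.705 after scaling). The smallest rise in the complex was that of Atp5g1, 1 of the 3 genes whose mature protein is the same subunit c of the membrane ring. Atp5g1 was 76.5, 72.0, 84.8, 91.2 and 89.0 FPKM in i4F and 98.3, 111, 134, 101 and 98.2 in the libraries labelled p53 KO, a change of 0.38 (SE 0.17, adjusted p = 0.037) as deposited and -1.37 (SE 0.24, adjusted p = 0.000165) after scaling. Atp5g2 changed by 1.06 and -0.70 and Atp5g3 by 1.26 and -0.51, so Atp5g1 stood lowest of the 3 genes on either scale. Of the members kept apart, Ndufa4, now counted as a subunit of complex IV, changed by 1.14 and -0.62, and Cox7a2l, which takes part in supercomplexes, by 1.19 and -0.57.

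The unequal shifts show without any scaling in the makeup of the subunit pool, each complex as a share of the summed FPKM of complexes I to V of its own library, which no scaling between libraries touches. Complex I held 30.9 to 32.2% in i4F pancreas, 31.2 to 32.7% in Ink4a/Arf KO and, where the label is p53 KO, 26.8 to 29.0%. In the same order, complex IV held 19.2 to 19.9%, 19.5 to 20.4% and 21.6 to 24.8%, and complex II 2.11 to 2.58%, 2.14 to 2.41% and 2.81 to 3.0%. For these 3 complexes all 5 libraries labelled p53 KO lay outside the range of the other 10, below for complex I and above for complexes IV and II. Complex III held 13.3 to 14.6%, 12.9 to 14.1% and 11.5 to 13.1%, and complex V 31.7 to 33.4%, 31.7 to 33.2% and 32.9 to 35%, and for both the range overlapped that of at least 1 other pancreas group. Summed complex I over summed complex IV was 1.56 to 1.68 in i4F, 1.53 to 1.68 in Ink4a/Arf KO and 1.18, 1.13, 1.24, 1.34 and 1.08 in replicates 1 to 5 labelled p53 KO. Among these 5, the ratio was highest in replicate 4, which also had the highest acinar share, and lowest in replicate 5, which had the lowest; with 5 libraries no correlation is given and the part of the acinar share was not tested. Kidney libraries held 26.4 to 28.1% in complex I, 23.9 to 26.3% in complex IV and 2.80 to 3.79% in complex II, with a complex I over IV ratio of 1.01 to 1.16. The mean share of complex I in the libraries labelled p53 KO, 27.7%, was thus nearer to that of i4F kidney (27.3%) than of i4F pancreas (31.7%), and so was that of complex IV (23.3% against 25.0% and 19.6%). Ratios of single genes, in the same order of groups, also differed. Ndufa1 over Sdha was 3.64 to 7.72, 5.35 to 7.04 and 1.37 to 2.55, against 0.994 to 2.04 in kidney. Sdhb over Sdha was 2.14 to 3.52, 2.86 to 3.30 and 1.08 to 1.75, against 0.936 to 1.72 in kidney. Kidney genotypes overlapped in all 5 shares.

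**Figure D3:**
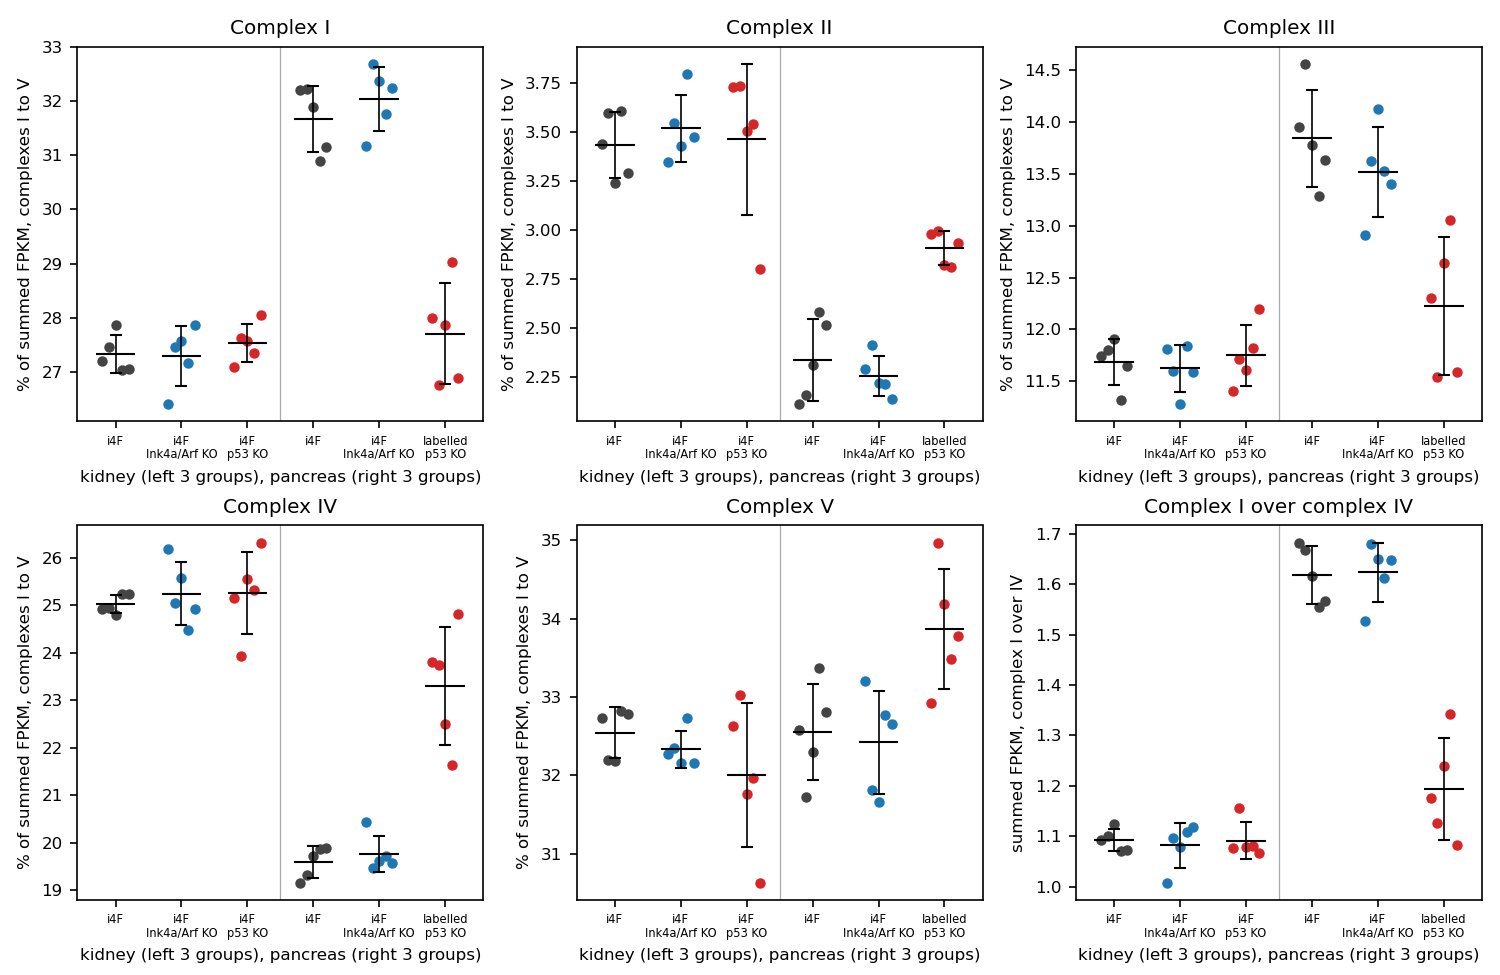
Share of each complex in the summed FPKM of complexes I to V of the same library (vertical axes in %, not starting at 0), and complex I over complex IV (last panel), for the 3 kidney groups (left of the grey line) and the 3 pancreas groups (right). Points are libraries in replicate order, lines means and bars SD; the pancreas libraries labelled p53 KO hold 26.8 to 29.0% in complex I against 30.9 to 32.7% in the other pancreas libraries.

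Members that were relatively high in pancreas compared with kidney rose least as deposited and fell most after scaling. The kidney-to-pancreas ratio was taken from the Ink4a/Arf KO libraries, whose values are not among those compared in the contrast of the libraries labelled p53 KO with i4F. However, 0 genes were called between Ink4a/Arf KO and i4F pancreas, so a like pancreas level is the baseline of both quantities. A positive correlation can arise from this shared baseline. Over 75 members, the ratio and the scaled log2 change had a Spearman correlation of 0.76 and a Pearson correlation of 0.69 (0.74 and 0.67 as deposited). The 20 members with the lowest ratios, 1.81 to 4.62, had a median change of 0.64 as deposited and -1.12 after scaling, and the 20 with the highest, 8.76 to 21.6, of 1.45 and -0.28. These correlations run across genes, which are not independent replicates and share the same libraries and size factors, so they carry no p-value. Over all genes with values the Spearman correlation was 0.29.

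**Figure D4:**
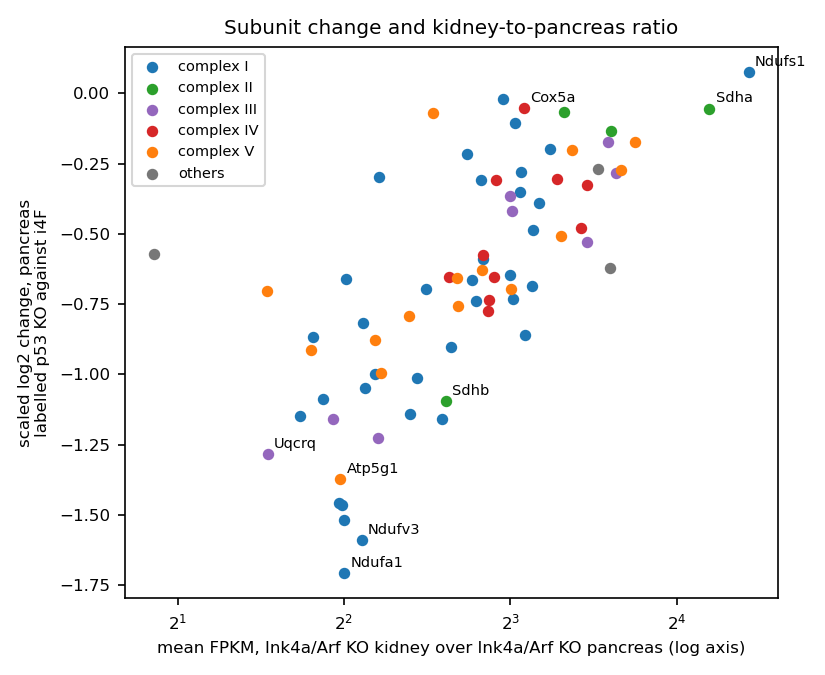
Scaled log2 change of each member in the pancreas libraries labelled p53 KO against i4F (vertical axis) against its kidney-to-pancreas ratio of mean FPKM in the Ink4a/Arf KO libraries (horizontal log axis), coloured by complex. Members with low ratios, such as Ndufa1 and Atp5g1, lie lowest, and members with high ratios, such as Sdha and Ndufs1, lie near 0; the Spearman correlation over 75 members is 0.76.

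Against Ink4a/Arf KO pancreas, the libraries labelled p53 KO gave 72 of 78 members higher as deposited (93.7% of all genes tested were called, 91.7% higher), with a median of 1.07 against 1.66 for all genes, and without Cox7a1 and Cox4nb 70 of 76. After scaling 67 were lower and 3 higher (71.0% of all genes were called, 24.6% lower and 46.4% higher): Cox4nb (0.38), Ndufs1 (0.22) and Ndufa4l2 (1.05), with a median of -0.74 against 0.24. This comparison and the one with i4F share the 5 libraries labelled p53 KO. As deposited and scaled, the log2 change was 0.04 and -1.77 for Ndufa1, 1.73 and -0.03 for Sdha and 0.59 and -1.21 for Sdhb, of which 0.04 and -0.03 missed the threshold. Ink4a/Arf KO pancreas against i4F gave 0 members called (0.0% of all genes, and 0 members at an unadjusted p under 0.05 as deposited, 2 after scaling). The median was 0.04 as deposited and 0.09 after scaling, against -0.07 and -0.03 for all genes, and the groups overlapped for all 78 members. The largest departures were Ndufs5, at -0.76 (SE 0.77), and Ndufa4l2, at -0.43 (SE 0.55), both within the spread between replicates.

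In p53 KO kidney against i4F, no member passed the adjusted threshold, where 0.257% of the 12431 genes tested did (32 genes, 0.0885% higher and 0.169% lower), but 81 of 83 members tested had a negative log2 change. Cox7b2 was not tested for low values. The median change of the members was -0.29, against 0.03 for all genes, and 51 of 83 had an unadjusted p under 0.05, against 1641 of 12431 genes. After scaling 0 members were called (0.451% of all genes) and the median was -0.31 against 0.007, with 81 negative and 36 at an unadjusted p under 0.05. The shift was nearly even over the complexes, with medians of -0.28, -0.28, -0.30, -0.28 and -0.29 for complexes I to V. Only Cox6a2 (0.08) and Cox6b2 (0.06) were positive. Ndufv2, the core subunit that takes electrons from the flavin site, had the smallest adjusted p, 0.0609. It was 134, 142, 138, 131 and 143 FPKM in i4F, 146, 115, 126, 122 and 131 in Ink4a/Arf KO and 95.4, 114, 96.6, 106 and 116 in p53 KO. The p53 KO and i4F values did not overlap, and the log2 change was -0.38 (SE 0.08). Counted over the list, 14 of 83 members had all 5 p53 KO kidneys below all 5 i4F kidneys, against 1.65% of all genes, and after scaling 5 did, against 1.45%. Sdha was 270, 270, 270, 269 and 268 FPKM in i4F and 181, 241, 231, 214 and 190 in p53 KO, a change of -0.36 (SE 0.09, adjusted p = 0.105). Uqcrc2 was 241 to 254 in i4F and 172, 217, 204, 201 and 161 in p53 KO (-0.37, SE 0.09, adjusted p = 0.0829). Over all 84 members listed in kidney, replicate 5 was the highest p53 KO library for 67 and replicate 1 the lowest for 72. Sdha and Uqcrc2 went against this, with replicate 5 among the lowest of the group, whereas replicate 5 was the highest for Cox8a (1491 FPKM against 814 to 1145 in the others) and Cox4i1 (1532 against 863 to 1096), and the Ndufa1 over Sdha ratio there was 2.04, the highest of the 15 kidneys.

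The kidney result rests on the libraries used. Without p53 KO replicate 5 the test called 8 members lower (Atp5h, Atp5k, Cox7b, Ndufa5, Ndufa9, Ndufc1, Ndufs4 and Ndufv2), without p53 KO replicate 2 it called 4 (Cox7a1, Ndufv2, Sdha and Uqcrc2), and without the 4 kidneys above 100 FPKM of the acinar gene Clps, which leaves p53 KO replicates 1 and 5 only, it called 4 (Cox7a1, Ndufs1, Sdha and Uqcrc2). In the same fits 0.557%, 1.34% and 2.22% of all genes tested were called. Other values moved with genotype in the same kidneys. Summed proximal tubule markers without Kap were 1738 to 3938 FPKM in p53 KO against 2871 to 4282 in i4F, with 2 of 8 markers higher on average and none separated from i4F. Kap, a proximal tubule gene, was 3889 to 34631 FPKM against 16741 to 76813. Summed distal nephron markers were 903 to 2231 against 1780 to 3307, with 1 of 6 markers higher on average and none separated, and summed leukocyte markers were 137 to 292 against 64.7 to 126, with 6 of 9 higher on average and 2 separated. Acinar enzyme genes took 0.0510 to 0.561% of FPKM in p53 KO and 0.0461 to 0.484% in i4F kidney, which overlap. All 18 were higher on average in p53 KO and 0 were separated. Xist was 20.9 and 26.6 FPKM in 2 of the 5 i4F kidneys and at most 0.0303 in p53 KO. The fit without the kidneys high in Clps is given above and the fit with Xist as a covariate below. None of these values was tested as a cause of the result.

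**Figure D5:**
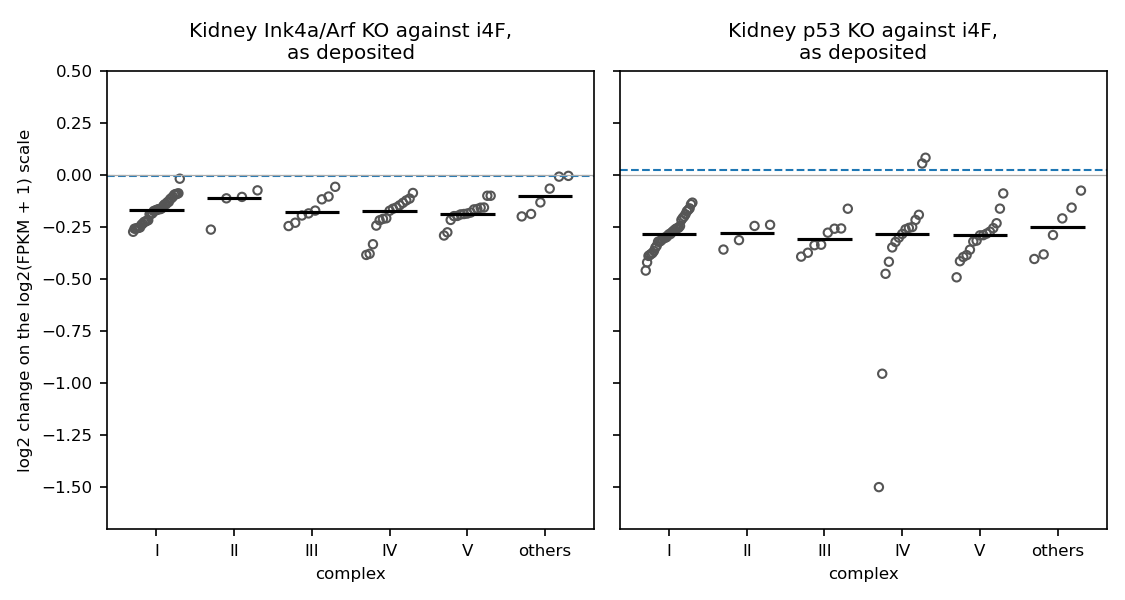
Log2 change of each member by complex (others being the 6 members kept apart) in Ink4a/Arf KO kidney (left) and p53 KO kidney (right) against i4F, as deposited. All points are open because none passed the test; black lines are medians by complex, -0.28 to -0.30 for complexes I to V on the right, the dashed blue line is the median of all genes tested, and the 2 lowest points of complex IV on the right are Cox8b and Cox7a1.

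Ink4a/Arf KO kidney against i4F gave 0 members called (0.0% of all genes, with 398 of 12431 genes and 1 member at an unadjusted p under 0.05). The log2 change was negative for all 83 members tested as deposited and for 81 after scaling, with medians of -0.17 and -0.16 against -0.003 and 0.006 for all genes. The smallest p was that of Ndufa5, a peripheral-arm accessory subunit (-0.27, SE 0.13, adjusted p = 0.997). The Ink4a/Arf KO values lay below every i4F value for 6 members, against 1.18% of all genes, and after scaling for 2, against 0.798%. By transcript length, short genes in general sat lower in this comparison. Below 750 bases of longest transcript, 21 members had a median of -0.21 and 361 genes of -0.14, from 750 to 1500 bases 33 members had -0.19 and 1290 genes -0.10, and above 1500 bases 29 members had -0.16 and 10625 genes 0.009. In p53 KO against i4F kidney the medians of the same 3 length classes were -0.27, -0.28 and -0.31 for the members and -0.01, -0.003 and 0.03 for all genes. In both comparisons the members' median was below that of all genes in each length class. p53 KO against Ink4a/Arf KO kidney gave 0 members called, against 0.265% of all genes (33 genes), and 0 after scaling (0.443%), with 15 members at an unadjusted p under 0.05 and medians of -0.14 for members and 0.03 for all genes. The 2 p53 KO comparisons share the p53 KO kidneys, and the 2 comparisons with i4F share the i4F kidneys.

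Among the tissue-restricted isoforms, Cox7a1, the heart and muscle form of subunit 7A, was 48.1, 45.3, 51.7, 44.1 and 58.8 FPKM in i4F kidney, 56.9, 36.8, 34.4, 37.6 and 50.2 in Ink4a/Arf KO and 13.4, 35.1, 29.8, 24.5 and 28.1 in p53 KO. All p53 KO kidneys were below all i4F kidneys, and the log2 change of -0.95 (SE 0.21), against a members' median of -0.29, missed the threshold (adjusted p = 0.0737, limma). In pancreas Cox7a1 was listed at 0 in 3 of 5 i4F libraries and reached 0.287 at most, was 0.532 at most in Ink4a/Arf KO, and was 6.97, 12.7, 3.29, 1.09 and 10.7 FPKM in the libraries labelled p53 KO. All 5 of these lay above the other 10, and no fold or test is given, since the gene passed the filter only through that group. Of the 4 skeletal muscle markers Acta1, Ckm, Mylpf and Tnnt3, 2 also lay above every i4F library there, as did 73.0% of all genes. On average 3 of the 4 were higher, and Ckm went the other way. Mylpf was 12.0, 17.3, 3.86, 1.04 and 6.13 FPKM in replicates 1 to 5. The part of tissue makeup in the Cox7a1 values was not tested.

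Cox8b, the muscle and brown fat form of subunit 8, was 0.490, 0.954, 0.458, 13.0 and 10.5 FPKM in i4F kidney, 22.1, 2.16, 0, 0.223 and 1.06 in Ink4a/Arf KO and 0, 2.02, 0.251, 0 and 0 in p53 KO, with a change in p53 KO against i4F of -1.50 (SE 0.84, adjusted p = 0.468). The 3 high kidneys, i4F replicates 4 and 5 and Ink4a/Arf KO replicate 1, were also the only 3 with Xist above 1 FPKM (26.6, 20.9 and 24.0), which marks female tissue in mice. The brown fat markers Ucp1, Cidea and Elovl3 summed to 0.832, 0.0601 and 0.0897 FPKM in those 3 kidneys, and the muscle markers to 1.07, 1.24 and 1.13, against 0.0272 to 2.32 (brown fat) and 0.585 to 1.55 (muscle) over all 15. Cox6b2, the testis form of subunit 6B, was highest in the same 3 kidneys (16.4, 17.1 and 19.6 FPKM) and in p53 KO replicate 4 (19.5), a kidney with Xist at 0.0302, and lay at 5.98 to 11.9 in the other 11.

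Ndufa4l2, the hypoxia-responsive relative of Ndufa4, was 3.89 to 5.30 FPKM in i4F kidney and 2.44, 3.79, 3.67, 4.49 and 2.68 in p53 KO (-0.38, SE 0.14, adjusted p = 0.248). In pancreas it was 1.17, 1.33, 0.833, 2.21 and 1.15 in i4F and 10.1, 8.67, 3.20, 1.19 and 49.9 in the libraries labelled p53 KO. Replicate 4 lay within the i4F range and replicate 5 far above the rest. The log2 change was 1.92 (SE 0.55, adjusted p = 0.00313) as deposited and 0.57 (SE 0.43, adjusted p = 0.242) after scaling, and its exons overlap those of Shmt2 on the opposite strand. The remaining isoforms were near the floor: Cox4i2 reached 2.24 FPKM, Cox6a2 4.52, Cox7b2 0.397 and Cox8c 0.248 at most in any library.

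Whether the 2 tissues differed was tested as the kidney change minus the pancreas change over all 30 libraries. The test treated the libraries as independent, with no pairing of kidney and pancreas by mouse. In an alternative fit, same-numbered kidney and pancreas libraries of a genotype label formed blocks. The consensus correlation within blocks was 0.0346 as deposited and 0.00776 after scaling. For the p53 label, 77 of 78 members were lower in kidney as deposited, against 90.7% of 10143 genes (91.9% called), with a median of -1.38 for members and -1.55 for all genes. Without Cox7a1 and Cox4nb it was 75 of 76. The exception was Ndufa1, at -0.30 (SE 0.20, adjusted p = 0.161). After scaling 21 members were higher and 3 lower, against 17.5% and 34.0% of 9870 genes (51.5% called). The largest differences were Ndufa1 (1.43, SE 0.29, adjusted p = 0.000241), Ndufa13 (1.25) and Ndufb9 (1.20), all of complex I, whose scaled values fell in pancreas and missed the threshold in kidney. The 3 lower members were Ndufs1 (-0.49), Cox4nb (-0.44) and Sdha (-0.33, SE 0.14, adjusted p = 0.0474). For Ink4a/Arf KO no member differed between tissues (0.0% of all genes), with 1 member at an unadjusted p under 0.05 as deposited and 3 after scaling.

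Genes that serve the same pathway were read from lists of assembly factors, electron carriers, regulators of mitochondrial biogenesis, the TCA cycle, glycolysis and the mitochondrial ribosome. In the pancreas libraries labelled p53 KO against i4F, all 28 assembly factors tested rose as deposited (median 1.31), where 91.2% of all genes did, and after scaling 6 rose and 7 fell (median -0.07), where 44.0% of all genes rose and 25.0% fell. Among them Acad9, needed to assemble complex I, rose by 0.53 after scaling and Sdhaf2, which helps attach the flavin to Sdha, by 0.53, while Ecsit, of complex I assembly, fell by 1.03 and Cox15, of heme A synthesis, by 0.63. Cytochrome c, Cycs, rose by 2.07 as deposited and had 0.43 after scaling (adjusted p = 0.0589), and Atpif1, which inhibits the ATP synthase, rose by 1.99 and had 0.24 (adjusted p = 0.157). Of 11 regulators of biogenesis tested, 10 rose as deposited and 5 rose and 1 fell after scaling (median 0.36). Nrf1 rose by 0.55 and Yy1 by 0.72 after scaling, Tfam, which packages mitochondrial DNA, had 0.01 (adjusted p = 0.90) and Tfb1m fell by 0.88. The 15 TCA cycle genes all rose as deposited (median 1.61), and 5 rose and 3 fell after scaling (median -0.01). Of 76 mitochondrial ribosome genes 76 rose as deposited, and 13 rose and 26 fell after scaling (median -0.16). Of 15 glycolysis genes 13 were higher on each scale, with medians of 3.14 and 1.52. Gapdh rose by 3.81 and 2.06, Hk2, the inducible hexokinase, by 3.36 and 1.98, and Ldha, which makes lactate, by 3.77 and 2.02, while Ldhb fell by 0.78 after scaling. The part of the acinar share and of the duct and fibroblast marker sums, which separate the same libraries, in these values was not tested. In p53 KO kidney against i4F none of the lists had a called gene. The median was -0.19 for 29 assembly factors, -0.34 for 5 carriers, -0.10 for 13 regulators, -0.24 for 15 TCA cycle genes, -0.03 for 14 glycolysis genes and -0.11 for 76 mitochondrial ribosome genes, and the subunits' median of -0.29 was below all of these but that of the carriers.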

How the data were processed

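Poly(A) RNA of 30 samples, 5 per group, was sequenced as stranded libraries from 1 µg RNA with 8 PCR cycles, with RNA integrity numbers of 7.4 to 9.4, per the labels' protocols. The authors deposited 1 table of FPKM per tissue. Per the submitters' processing notes, the build was mm10 and the tools named are Cufflinks 2.2.1, TopHat2 2.0.10, SAMtools 0.1.19, Bowtie 1.0.0 and FastQC. How reads were assigned by strand and which annotation was used are not given in the sources used here. Depth per library is unknown beyond over 24 M mapped reads per sample, so no counting interval is given. Groups were taken from the genotype and tissue labels. Each tissue was fitted with limma 3.58.1 (R 4.3.3; lmFit, contrasts, eBayes with trend) on log2(FPKM + 1) over its 15 libraries in 3 groups, for genes of at least 1 FPKM in at least 5 libraries. P-values were two-sided and Benjamini-Hochberg adjusted over all genes tested, with a threshold of 0.05. Every fit was repeated after median-of-ratios scaling within the tissue, over 10740 kidney and 5887 pancreas genes above 1 FPKM in all 15 libraries. The difference between tissues was a contrast over all 30 libraries. The fit was tested on simulated data. Members and gene lists were chosen with earlier results of these data known. Named genes were a list of 30 members, and for each comparison and scale the 3 largest called rises and falls, or the 3 smallest p-values where none was called, the 3 members farthest from the members' median, the highest and lowest member of each complex and members at 0 in some libraries and above 10 FPKM in others. Other genes named were chosen after their values were seen. Alternatives were the other scale, adding 0.1 in place of 1, dropping the filter or raising it to 5 FPKM, the replicate number as a block, Xist as a covariate, only the 2 groups compared, leaving out each library, and kidney without libraries above 100 FPKM of Clps. Scaling to the FPKM outside the acinar list was added after the data were seen. Sequences and promoter starts are from RefSeq tables (GRCm38.p6) and gene positions and exon overlaps from a GRCm38 annotation, where 26 of 85 members share exon bases with another protein-coding gene.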

Additional observations from a re-analysis of the deposited data

Results flagged for a closer look

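Of 173 groups of 5 values examined, 14 held a library whose gap to its nearest neighbour took more than 0.71 of the group's range (Dixon's limit for 5 values), where chance gives about 1 in 20. In Ink4a/Arf KO kidney these were Uqcrq, with a lowest value of 517 FPKM against 562 in the next library, Atp5g1, with a highest of 434.5 against 346, Cox6b2, with 19.6 against 9.02, and Cox8b, with 22.1 against 2.16. The last 2 were the same library, replicate 1, the only one of its group with Xist above 1 FPKM. In p53 KO kidney, summed complex II was lowest at 834 FPKM against 989 in the next library, Uqcrq was highest at 843 against 519.6, Cox6b2 at 19.5 against 11.9 and Cox8b at 2.02 against 0.251. In i4F pancreas, restricted isoforms near 0 had 1 higher library each: Cox4i2 at 1.16 FPKM against 0.256, Cox6b2 at 2.24 against 0.454 and Cox8b at 1.07, the others being listed at 0. In the pancreas libraries labelled p53 KO, Ndufs5 was lowest at 13.0 FPKM against 28.6, in replicate 4, which also had the highest acinar share of its group, Ndufa4l2 was highest at 49.9 against 10.1, in replicate 5, and Cox8b was 0.212 in 1 library and listed at 0 in the others. The change with the p53 label differed between kidney and pancreas, by limma's test of the difference itself, for 77 of 78 members as deposited and for 24 of 78 after scaling. Without Cox7a1 and Cox4nb it was 75 of 76 as deposited.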

How the results depend on the processing

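Which members moved in pancreas, and in which direction, depended on the scale, and in kidney the number called depended on the libraries kept. In the libraries labelled p53 KO against i4F, 72 members were called as deposited (median 1.11), 61 after scaling (median -0.65) and 35 when scaled to the FPKM outside the acinar list (median 0.18, with 69.4% of all genes higher and 6.84% lower). Against Ink4a/Arf KO the values were 72 (1.07), 70 (-0.74) and 40 (0.27, with 76.4% of all genes higher and 5.66% lower), and for the difference between tissues 77 as deposited and 24 after scaling. The counts as deposited include Cox7a1 and Cox4nb, which passed the filter only with the libraries labelled p53 KO. Without them 70 of 76 members were called against i4F, 70 of 76 against Ink4a/Arf KO and 75 of 76 for the difference between tissues. In the comparison with i4F all 78 members tested were positive as deposited and 75 of 78 negative after scaling. For the members followed through every alternative whose sign differed, of which several missed the threshold on 1 of the scales, the values as deposited and then scaled were Atp5a1 (1.59 and -0.17), Atp5b (1.5 and -0.27), Atp5g1 (0.38 and -1.37), Atp5g2 (1.06 and -0.70), Atp5g3 (1.26 and -0.51), Cox4i1 (1.12 and -0.65), Cox5a (1.71 and -0.05), Cox6a1 (1.12 and -0.65), Cox6b1 (1.46 and -0.31), Cox7a2 (1.02 and -0.73), Cox7a2l (1.19 and -0.57), Cox8a (1.44 and -0.33), Ndufa1 (0.04 and -1.71), Ndufa4 (1.14 and -0.62), Ndufb9 (0.24 and -1.52), Ndufv1 (1.02 and -0.69), Ndufv3 (0.15 and -1.59), Sdha (1.65 and -0.05), Sdhb (0.64 and -1.10), Sdhc (1.60 and -0.13), Sdhd (1.67 and -0.07), Uqcrc1 (1.37 and -0.36), Uqcrfs1 (1.21 and -0.53), Uqcrh (0.61 and -1.16). On the scale outside the acinar list, Atp5g1 was -0.55, Ndufa1 was -0.88, Ndufb9 was -0.69, Ndufv3 was -0.77, Sdhb was -0.28, Uqcrh was -0.33. Against Ink4a/Arf KO the same held, in the order of the 3 scales, for Ndufa1 (0.04, -1.77 and -0.76), Ndufb9 (0.23, -1.59 and -0.58), Ndufv3 (0.22, -1.58 and -0.58). In p53 KO kidney against i4F, 0 members were called, 1 with Xist as a covariate (Uqcrfs1, and 1 after scaling), 4 without the libraries above 100 FPKM of Clps (3 after scaling) and 0 to 8 with single libraries left out (0 to 4 after scaling). Against Ink4a/Arf KO the count was 5 without those libraries (4 after scaling) and 0 to 1 with single libraries left out. Of all genes tested against i4F, 1.96% were called with Xist as a covariate (3.96% after scaling) and 2.22% without those libraries (2.76%). Without p53 KO replicate 5, which gave the 8, it was 0.557% (0.858%). Against Ink4a/Arf KO, 7.14% of all genes were called without those libraries (7.09%), against 6.1% of the members (4.88%). Without p53 KO replicate 2, which gave the 1, it was 2.63% of all genes. The cause of these changes was not tested. With single libraries left out, the members' median stayed between -0.36 and -0.21 in p53 KO kidney against i4F (scaled -0.41 to -0.19), -0.20 and -0.12 in Ink4a/Arf KO kidney (scaled -0.21 to -0.08), and -0.21 and -0.05 in p53 KO against Ink4a/Arf KO kidney (scaled -0.27 to -0.05). In pancreas it was -0.03 to 0.09 for Ink4a/Arf KO (scaled 0.02 to 0.18), 1.02 to 1.24 for the p53 label against i4F (scaled -0.72 to -0.57) and 0.99 to 1.21 against Ink4a/Arf KO (scaled -0.81 to -0.68). Members called ranged from 70 to 74 and 55 to 66 (scaled) against i4F, 69 to 73 and 61 to 71 against Ink4a/Arf KO, and 74 to 78 and 17 to 37 for the difference between tissues, the 37 without p53 KO kidney replicate 1. Replicate numbers were not used as pairs in the main fits. Within a tissue, same-numbered libraries had correlations of -0.384 to 0.291, over 0.1 for at most 3 of 5 pairs. At most 3 of 5 samples correlated best with their own number. Both highest counts were in p53 KO against i4F kidney, so pairing there is not excluded. This check did not cover pairs across tissues. With the replicate block 71 and 56 (scaled) members were called in the pancreas comparison with i4F, 69 and 64 in that with Ink4a/Arf KO, and 0 in every kidney comparison. Depth is unknown, so low isoforms listed at 0 cannot be given a limit.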
